A study of Homo sapiens with 4 samples.

Results

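Long noncoding RNA and antisense RNA genes were followed in A2780s cells, an epithelial ovarian cancer (EOC) line, in clones labelled as knockouts of the polypeptide GalNAc transferase GALNT3 alone or together with GALNT6. Both enzymes start mucin-type O-glycosylation by adding GalNAc to serine and threonine. The genes were chosen by name: symbols starting with LINC or SNHG followed by digits, symbols ending in -AS1, -AS2, -IT1 or -OT1, and 6 named RNAs (H19, MEG3, NEAT1, MALAT1, GAS5 and HOTAIR) whose probes were used here. PVT1 and DLEU2 were not analysed here. This gave 647 genes of 29123 on the array, of which 581 of the 27225 genes with measurable signal could be tested. The 581 comprised 255 LINC genes, 15 SNHG genes, 292 antisense genes, 13 intronic or overlapping transcripts and the 6 named RNAs. The remaining 66 genes were not well above background often enough to be tested, and they are counted in no result.

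The samples were 4 two-colour Agilent arrays on 1 slide. GALNT3 KO was represented by 2 CRISPR-Cas9 knockout clones, and GALNT3/T6 KO by 2 clones that also carried a lentiviral shRNA against GALNT6. Knockout clones had been selected in puromycin already, so transduction and a further selection went together with the second group. Every array carried KO RNA in red (Cy5) and RNA of mock-transfected Ctrl cells in green (Cy3), with no dye swap and no Ctrl-against-Ctrl array. A dye effect and a KO effect shared by all arrays therefore cannot be told apart, the spread of Ctrl itself is left out, and p-values measure the spread between 2 clones per group. Values are given as the log2 of KO signal over Ctrl signal, or log2 ratio, for replicate 1 and then replicate 2. A gene was called, and is said to have risen or fallen, when its adjusted p from limma was at or below 0.05. Of the noncontrol spots, 86.9% to 93.8% were well above background per channel and array, and 0 were saturated.

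The targeted genes were checked first. The GALNT3 probe stayed at background in the KO and the Ctrl channel of the GALNT3 KO arrays, where its ratios were 0.13 and 0.24. On the other arrays its ratios were 4.80 and 5.08, a rise of 4.94 against the label (adjusted p from limma 9.2e-05), and they are called the GALNT3/T6-labelled arrays throughout. There the GALNT3 probe was well above background in the Ctrl channel as well as in the KO channel. GALNT6 fell by 0.42 on the GALNT3 KO arrays (adjusted p from limma 0.0446) and by 0.67 on the GALNT3/T6-labelled arrays (adjusted p from limma 0.00335). The epithelial genes KRT8, KRT18, KRT19 and EPCAM and the ovarian carcinoma genes PAX8, WT1 and MUC16 were above background on every array, and the endothelial gene PECAM1 on none. The fibroblast genes COL1A1 and COL3A1 and the leukocyte gene PTPRC were also above background on every array. Detection alone therefore does not tell cell types apart here. KRT18 rose by 5.68, KRT19 by 4.81 and KRT8 by 2.83 on the GALNT3/T6-labelled arrays. The other epithelial and ovarian genes changed less: means were 0.75 for CDH1, 1.21 for PAX8, 1.01 for WT1 and 0.06 for MUC16. The 2 clones differed for EPCAM, with ratios of -0.05 and 1.36. There the fibroblast collagen genes COL1A1 and COL3A1 had means of 1.98 and -0.98, and the leukocyte gene PTPRC had 0.06. The part of cell state in the RNAs below was not tested, and in bulk RNA fewer cells with a transcript and less transcript per cell cannot be told apart.

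Long noncoding RNAs are transcribed and processed much like messenger RNAs but are not read into long proteins. Some stay in the nucleus and organise it: NEAT1 is the scaffold of paraspeckles, MALAT1 lies in nuclear speckles, and HOTAIR, made within the HOXC gene cluster, binds the Polycomb repressive complex PRC2. SNHG genes and GAS5 are hosts of small nucleolar RNAs, which are cut from their introns, and antisense genes run against, or start head to head with, a protein-coding gene whose name they carry. The array names are older than current RefSeq annotation: 642 of the 647 genes matched a RefSeq gene and 122 now have another symbol. Of the tested genes, 26 are annotated in RefSeq as protein coding, among them LINC00116 (now MTLN, a mitochondrial micropeptide gene), LINC01420 (NBDY) and LINC00998 (SMIM30).

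The 60-base probes behind the results that follow are printed 5′ to 3′ as the array files give them, with their hg19 positions and strand. Both probes of SNHG18 are shown because both carried the largest rise, the brighter at chr5:9550318-9550377 and the dimmer at chr5:9549609-9549668, plus strand. Those of SERTAD4-AS1 (chr1:210404869-210404928, minus strand), LINC01133 (chr1:159946495-159946554, plus strand) and NEAT1 (chr11:65193274-65193333, plus strand) stand for RNAs that rose on the GALNT3/T6-labelled arrays. Those of LINC01351 (chr1:190449585-190449644, plus strand), HOTAIR (chr12:54356661-54356720, minus strand) and LBX1-AS1 (chr10:102998550-102998609, plus strand) stand for RNAs that fell, and that of SNHG8 (chr4:119200825-119200884, plus strand) for an RNA whose calls had opposite signs in the 2 groups, as those of SERTAD4-AS1 also had.
SNHG18, brighter probe: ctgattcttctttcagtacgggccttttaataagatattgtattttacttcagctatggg
SNHG18, dimmer probe: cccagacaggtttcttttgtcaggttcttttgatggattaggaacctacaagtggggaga
SERTAD4-AS1: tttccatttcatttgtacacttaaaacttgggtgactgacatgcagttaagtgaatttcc
LINC01133: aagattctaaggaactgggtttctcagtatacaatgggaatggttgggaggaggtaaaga
NEAT1: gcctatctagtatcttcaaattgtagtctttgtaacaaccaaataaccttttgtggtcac
LINC01351: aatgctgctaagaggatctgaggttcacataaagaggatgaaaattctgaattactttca
HOTAIR: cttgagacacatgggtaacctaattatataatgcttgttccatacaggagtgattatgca
LBX1-AS1: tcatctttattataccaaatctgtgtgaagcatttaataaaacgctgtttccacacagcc
SNHG8: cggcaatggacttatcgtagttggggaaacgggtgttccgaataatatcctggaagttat

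Fewer of these genes were called in GALNT3 KO than on the GALNT3/T6-labelled arrays when all 4 arrays shared 1 estimate of the spread. With the spread taken from each group's own arrays, 154 and 147 were called, so this contrast depended on that choice. The counts that follow here use the shared estimate. In GALNT3 KO, 19 of the 581 rose (3.27%) and 28 fell (4.82%), beside 4.69% and 6.34% of all genes tested. On the GALNT3/T6-labelled arrays, 121 rose (20.8%) and 126 fell (21.7%), beside 24.8% and 23.1% of all genes. Between the KO groups, 37 were higher on the GALNT3/T6-labelled arrays (6.37%) and 52 lower (8.95%), beside 11.8% of all genes in each direction. These shares were near or below those of all genes, and the difference from all genes was not tested. The median log2 ratio of the 581 genes was 0.0186 in GALNT3 KO and 0.0189 on the GALNT3/T6-labelled arrays, against 0.0234 and 0.0322 over all genes. Changes of at least 4-fold among called genes numbered 0 higher and 1 lower in GALNT3 KO, and 10 higher (1.72%) and 9 lower (1.55%) on the GALNT3/T6-labelled arrays, where 3.28% and 2.09% of all genes changed that much.

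The 47 calls in GALNT3 KO rested on both clones: without replicate 1 the count was 0 (lowest adjusted p from limma 0.282, 81 genes at an unadjusted p under 0.05), and without replicate 2 it was 0 as well (lowest 0.341, 56 genes unadjusted). With each array's ratios only centred on their median, 5 rose and 31 fell in GALNT3 KO, and with the Feature Extraction log ratio 1 rose and 9 fell, so the balance of higher and lower calls there depends on the scaling. Without either GALNT3 KO array, 147 genes were called on the GALNT3/T6-labelled arrays and 19 between the KO groups. Without replicate 1 or 2 of the GALNT3/T6-labelled arrays, 154 genes were called in GALNT3 KO (86 higher, 68 lower), and between the KO groups 143 without replicate 1 and 121 without replicate 2.

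**Figure D1:**
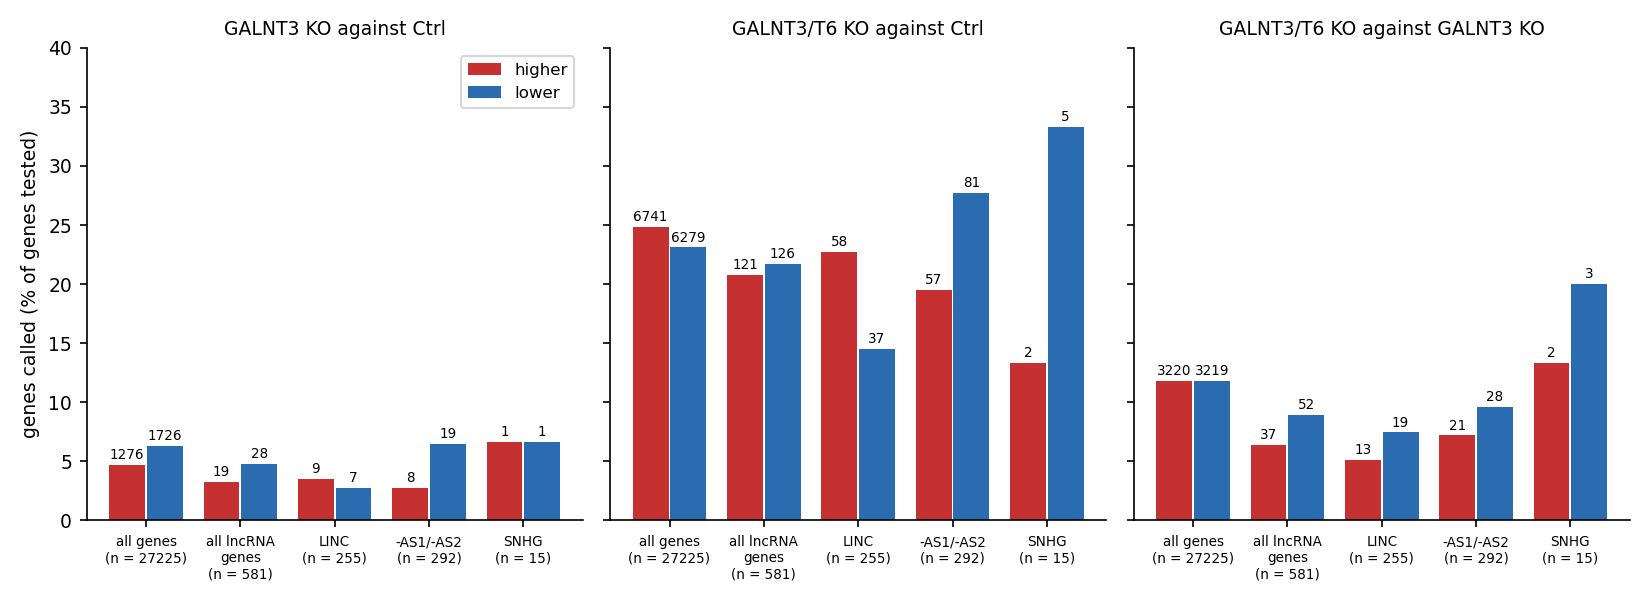
Bars give the percentage of tested genes called higher or lower (adjusted p from limma at or below 0.05) in the 3 comparisons, for all genes, all 581 RNA genes followed here, and the LINC, antisense and SNHG genes, with the number called above each bar. On the GALNT3/T6-labelled arrays, LINC genes were called higher more often than lower (58 and 37) and antisense genes lower more often than higher (81 and 57). Of all genes, 24.8% were called higher and 23.1% lower there.

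The calls were split by class, as in the bar plot of the share of called genes. On the GALNT3/T6-labelled arrays, among LINC genes 22.7% rose and 14.5% fell, and among antisense genes 19.5% rose and 27.7% fell. Over all genes on these arrays 24.8% rose and 23.1% fell. Of the 13 intronic or overlapping transcripts 2 rose and 2 fell (15.4% each). In GALNT3 KO, 9 LINC genes rose (3.53%) and 7 fell (2.75%), and 8 antisense genes rose (2.74%) and 19 fell (6.51%). The shares of all genes there were 4.69% and 6.34%, so the share of antisense genes that fell was near that of all genes. The difference between classes was not tested. Over the 581 genes, the ratios of replicates 1 and 2 had a Pearson r of 0.789 in GALNT3 KO and 0.897 on the GALNT3/T6-labelled arrays. Their rank correlations (Spearman) were 0.732 and 0.833. Over all genes the Pearson r was 0.835 and 0.916. These values are a description across genes that share arrays and Ctrl RNA. The SD of the ratios over genes was 0.331 and 0.354 on the GALNT3 KO arrays and 0.740 and 0.778 on the others.

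**Figure D2:**
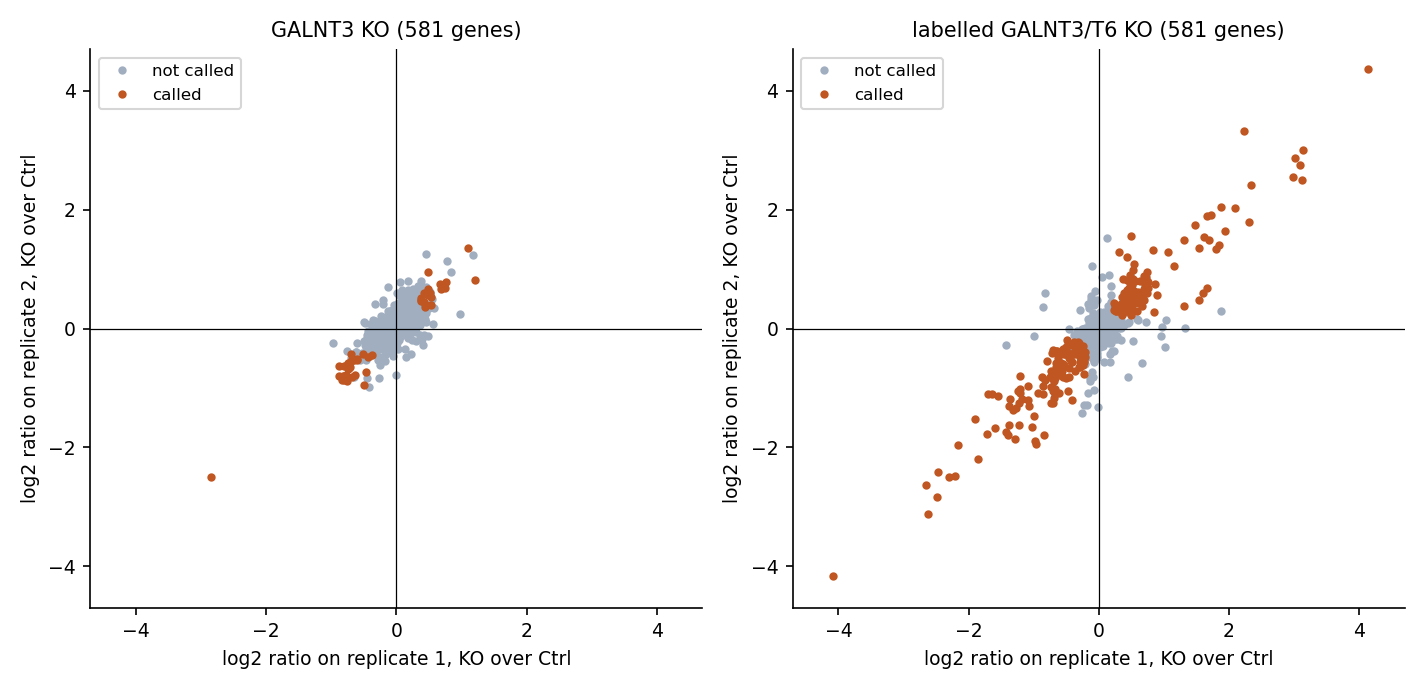
Each point is 1 of the 581 genes, with the log2 ratio of KO over Ctrl on the replicate 1 array (x axis) and on the replicate 2 array (y axis), for GALNT3 KO and for the GALNT3/T6-labelled arrays, and called genes are orange. All 47 genes called in GALNT3 KO and all 247 called on the GALNT3/T6-labelled arrays had the same sign on both arrays.

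SNHG18, a host of small nucleolar RNA beside the semaphorin gene SEMA5A, had the largest rise. Its ratios were -0.02 and -0.15 in GALNT3 KO and 4.14 and 4.37 on the GALNT3/T6-labelled arrays. The first pair lay about 0 and the second far above it, with no overlap. The mean rise was 4.26 ± 0.10 (SE from limma, n = 2, adjusted p from limma 9.2e-05). Its dimmer probe gave 2.50 and 2.72 on the same arrays and 0.17 and 0.35 in GALNT3 KO, so the size of the rise depended on the probe while its direction did not. The red (KO) level of the brighter probe, on a log2 scale set between channels, was 8.68 in GALNT3 KO and 14.12 on the GALNT3/T6-labelled arrays, and the green (Ctrl) level was 8.76 and 9.86. The neighbouring SEMA5A had ratios of 2.79 and 4.11 on the GALNT3/T6-labelled arrays (mean 3.45, adjusted p from limma 0.00186). SNHG11 rose with smaller ratios, 1.54 and 1.36, and a mean of 1.45 (adjusted p from limma 0.000515).

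SNHG8 was the SNHG gene called in opposite directions. Its ratios were 1.11 and 1.36 in GALNT3 KO and -0.84 and -1.79 on the GALNT3/T6-labelled arrays. Both GALNT3 KO clones stood above Ctrl and both other clones below it. It rose by 1.23 in the former (SE 0.24, adjusted p from limma 0.0468), fell by 1.32 in the latter (adjusted p from limma 0.0118), and differed by -2.55 between the groups (adjusted p from limma 0.00855). The fall against Ctrl was not called when either GALNT3 KO array was left out of the fit (adjusted p from limma 0.0581, range over all alternatives 1.51e-05 to 0.358). PRSS12, a secreted protease gene beside SNHG8, rose by 1.23 in GALNT3 KO (adjusted p from limma 0.0235) and was called at 0.58 on the GALNT3/T6-labelled arrays (adjusted p from limma 0.0270), in 4 of 14 settings (range 0.00146 to 0.378).

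The other SNHG genes moved less. SNHG10 had ratios of -0.43 and -0.47 in GALNT3 KO and -1.23 and -1.04 on the GALNT3/T6-labelled arrays, and fell in both (adjusted p from limma 0.0474 and 0.000983). On the GALNT3/T6-labelled arrays, SNHG21 (-0.67 and -1.10), SNHG16 (-0.69 and -0.89) and SNHG17 (-0.46 and -0.82) fell as well, with means of -0.89, -0.79 and -0.64. The fall of SNHG17 was not called in every setting (adjusted p from limma 0.0547 without either GALNT3 KO array, range 0.00113 to 0.321). In all, 1 SNHG gene rose and 1 fell in GALNT3 KO (6.67% each), beside 4.69% and 6.34% of all genes. On the GALNT3/T6-labelled arrays 2 rose (13.3%) and 5 fell (33.3%), beside 24.8% and 23.1% of all genes. The share called there was 46.7%, near the 47.8% of all genes. Among the 8 not called there, the 2 clones had opposite signs for SNHG1 (0.52 and -0.21), SNHG5 (0.67 and -0.58) and SNHG12 (0.46 and -0.81). They also had opposite signs for SNHG7 (0.07 and -0.26), SNHG20 (0.18 and -0.56) and SNHG24 (-0.03 and 0.47). For SNHG15 (-0.17 and -1.08) and SNHG19 (-0.08 and -1.03) both clones lay below 0. Replicate 2 was lower than replicate 1 for 12 of the 15 SNHG genes on these arrays, against 334 of all 581 genes, and for 8 of 15 in GALNT3 KO, against 241 of 581.

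Host genes of small nucleolar RNAs are known for starts within a run of pyrimidines, shared with ribosomal protein genes. A run of at least 5 bases of C or T covering the RefSeq start on the RNA strand was found in 7 of the 13 SNHG genes with a promoter sequence in RefSeq (53.8%), in 36 of 431 of the tested genes (8.35%) and in 3372 of 35116 promoters (9.6%). Windows of 25 bases on each side of the start (RefSeq, GRCh38.p14), with the run in capitals, are shown for some hosts with a run. These are the host that rose most, the host with opposite calls and some, not all, of the hosts whose 2 clones differed in sign: SNHG18 at chr5:9546175-9546224 and SNHG8 at chr4:118278737-118278786 on the plus strand, and SNHG1 at chr11:62855861-62855910, SNHG5 at chr6:85678709-85678758 and SNHG12 at chr1:28581849-28581898 on the minus strand.
SNHG18: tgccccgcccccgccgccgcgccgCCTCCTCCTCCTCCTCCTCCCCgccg
SNHG8: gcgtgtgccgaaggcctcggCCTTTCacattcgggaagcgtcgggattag
SNHG1: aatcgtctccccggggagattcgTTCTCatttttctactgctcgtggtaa
SNHG5: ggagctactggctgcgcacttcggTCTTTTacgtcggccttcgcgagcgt
SNHG12: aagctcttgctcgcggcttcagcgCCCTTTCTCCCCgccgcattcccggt

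The run of SNHG18 was 22 bases long and that of SNHG8 was 6, against 12 in SNHG12, 6 in SNHG5 and 5 in SNHG1. No such run covered the start of SNHG10, SNHG11, SNHG16, SNHG17 or SNHG21, which were called on the GALNT3/T6-labelled arrays, or of SNHG20, which was not (-0.19, adjusted p from limma 0.4438).

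Genes for proteins that bind small nucleolar RNAs fell on the GALNT3/T6-labelled arrays. Of 14 genes of the small nucleolar ribonucleoproteins, 0 rose and 12 fell (85.7%), beside 24.8% and 23.1% of all genes. Their median was -1.11 against 0.0322 over all genes. FBL, the methyltransferase of box C/D particles, fell by 2.36, NOP56 of the same particles by 1.78, and GAR1 of the box H/ACA particles by 2.17. In GALNT3 KO limma called 0 of the 14, beside 11% of all genes, with a median of -0.15.

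**Figure D3:**
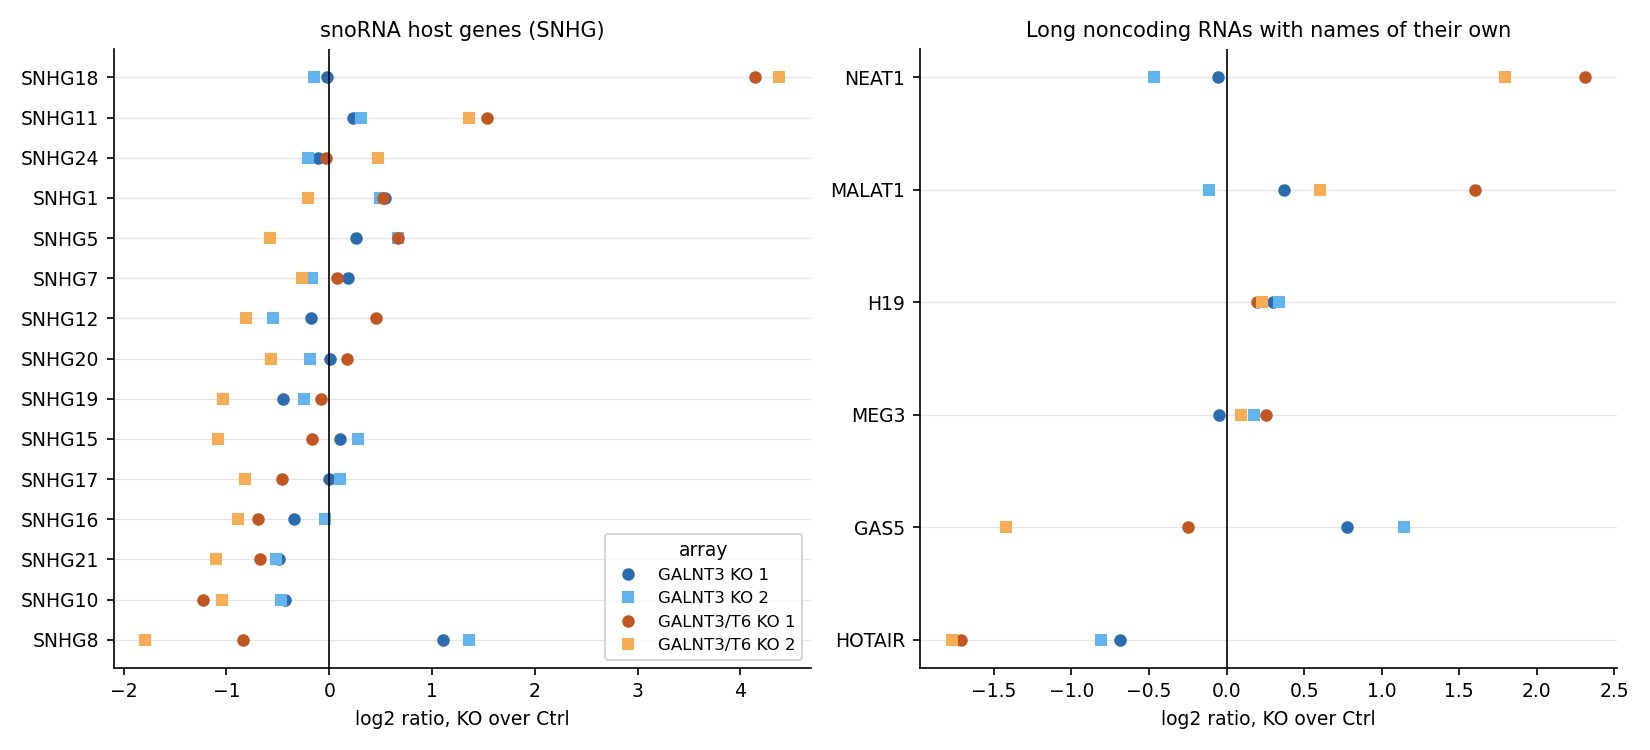
Dots give the log2 ratio of KO over Ctrl on each of the 4 arrays for the 15 SNHG genes and the 6 named long noncoding RNAs, coloured by group. SNHG18 stands at 4.14 and 4.37 on the GALNT3/T6-labelled arrays, SNHG8 and GAS5 lie above 0 in GALNT3 KO and below it on the other arrays, and HOTAIR lies below 0 on all 4.

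GAS5 and EPB41L4A-AS1, which also host small nucleolar RNAs, had the same order of groups as SNHG8. The ratios of GAS5 were 0.78 and 1.14 in GALNT3 KO and -0.25 and -1.42 on the GALNT3/T6-labelled arrays. The groups did not overlap, but neither was called against Ctrl (adjusted p from limma 0.0973 and 0.0730). The difference between them was -1.80 (adjusted p from limma 0.0408, range over alternatives 2.33e-05 to 0.282). EPB41L4A-AS1 had ratios of 0.84 and 0.95 in GALNT3 KO and -0.96 and -1.95 on the other arrays. It fell by 1.45 on the latter (adjusted p from limma 0.00906), which was not called without either GALNT3 KO array (0.0524, range 5.49e-06 to 0.349), and its difference between groups was -2.35 (adjusted p from limma 0.0110). The other EPB41L4A-AS1 probe had means of 1.07 in GALNT3 KO and -0.39 on the GALNT3/T6-labelled arrays. ZBTB37, a zinc finger gene beside GAS5, fell by 1.86 on the GALNT3/T6-labelled arrays (adjusted p from limma 0.000742).

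NEAT1 rose on the GALNT3/T6-labelled arrays. Its ratios were -0.05 and -0.47 in GALNT3 KO and 2.31 and 1.79 on the GALNT3/T6-labelled arrays. The second pair lay well above the first. The mean rise was 2.05 ± 0.17 (SE from limma, n = 2, adjusted p from limma 0.0012), and the difference from GALNT3 KO was 2.31 (adjusted p from limma 0.00445). A second NEAT1 probe gave 2.35 and 2.34 on the same arrays, and 0.32 and 0.45 in GALNT3 KO.

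Genes for proteins of paraspeckles, the bodies built on NEAT1, mostly fell. So did most of the small nucleolar ribonucleoprotein, nuclear speckle and RNA decay genes counted here. Of 12 paraspeckle genes, 0 rose and 10 fell (83.3%) on the GALNT3/T6-labelled arrays, beside 24.8% and 23.1% of all genes. Their median was -1.22. PSPC1 fell by 1.99 and TAF15 by 2.75. SFPQ, called at -0.68, passed in 8 of 14 settings, and NONO at -0.29 was not called. In GALNT3 KO 0 rose and 1 fell (8.33%), beside 4.69% and 6.34% of all genes, with a median of -0.33.

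MALAT1, next to NEAT1 on the chromosome, was less certain. Its ratios were 0.37 and -0.11 in GALNT3 KO and 1.60 and 0.60 on the GALNT3/T6-labelled arrays. The clones differed by more than those of NEAT1. It was called at 1.104 (adjusted p from limma 0.0272), but not without either GALNT3 KO array (0.0837, range over alternatives 9.12e-05 to 0.4), and other MALAT1 probes averaged 0.21, 1.08 and 0.32. Of 12 nuclear speckle genes, 0 rose and 8 fell (66.7%) on these arrays, beside 24.8% and 23.1% of all genes. Their median was -0.75, and the splicing coactivator SRRM1 fell by 2.14 and the splicing factor SRSF1 by 0.95.

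The imprinted RNAs H19 and MEG3 were not called. H19 had ratios of 0.30 and 0.34 in GALNT3 KO and 0.19 and 0.23 on the GALNT3/T6-labelled arrays, and was not called (adjusted p from limma 0.0670 and 0.0843). IGF2, the growth factor gene imprinted together with H19, had 0.48 and 2.05 on the latter arrays and was called at 1.27 (adjusted p from limma 0.0466) in only 6 of 14 settings (range 3.77e-06 to 0.469). MEG3 had ratios of -0.05 and 0.18 in GALNT3 KO and 0.25 and 0.09 on the other arrays and was not called, though another MEG3 probe gave 0.03 and 2.43 on the GALNT3/T6-labelled arrays, so its 2 clones differed there. Over 10 measured protein-coding genes near the 6 named RNAs, 3 rose (30%) and 5 fell (50%) on these arrays, beside 24.8% and 23.1% of all genes. Their median was -0.72. In GALNT3 KO 0 rose and 2 fell (20%), beside 4.69% and 6.34% of all genes, with a median of -0.23.

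HOTAIR fell in both groups. Its ratios were -0.69 and -0.81 in GALNT3 KO and -1.71 and -1.77 on the GALNT3/T6-labelled arrays. All 4 lay below Ctrl, and the second pair lay below the first. It fell by 0.75 (SE 0.08, adjusted p from limma 0.0231) and fell by 1.74 (adjusted p from limma 0.000283), and the difference was -0.99 (adjusted p from limma 0.00634). HOXC12 and HOXC11, transcription factor genes of posterior body patterning on each side of HOTAIR, were also lower, while HOXC10 had a mean of 0.02 in GALNT3 KO (adjusted p from limma 0.9199) and fell by 0.94 on the GALNT3/T6-labelled arrays. HOXC12 had ratios of -2.968 and -2.999 in GALNT3 KO, where it fell by 2.98 (adjusted p from limma 0.00478), and was at least 10.5-fold lower than Ctrl on the GALNT3/T6-labelled arrays, where its KO signal was not well above background. HOXC11 fell in both groups, with means of -0.71 and -0.63 (adjusted p from limma 0.0256 and 0.00534), the latter not called with the Feature Extraction log ratio (0.142, range 0.00218 to 0.26). HOXC13 fell by 1.55 on the GALNT3/T6-labelled arrays (adjusted p from limma 0.00121) and had a mean of -0.40 in GALNT3 KO (adjusted p from limma 0.109).

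LBX1-AS1, antisense to the homeobox gene LBX1, had the largest fall in GALNT3 KO. Its ratios were -2.84 and -2.49 in GALNT3 KO and -2.62 and -3.12 on the GALNT3/T6-labelled arrays. The groups overlapped. It fell by 2.67 ± 0.16 (SE from limma, n = 2, adjusted p from limma 0.00869) and fell by 2.87 (adjusted p from limma 0.000399), and the difference of -0.21 between the groups was not called (adjusted p from limma 0.635). The KO signal of LBX1-AS1 was not well above background on the GALNT3 KO replicate 1 array, and the Feature Extraction log ratio gave a larger mean of -4.52 in GALNT3 KO. LBX1 itself had -0.10 in GALNT3 KO and fell by 0.81 on the GALNT3/T6-labelled arrays (adjusted p from limma 0.00507).

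Other RNAs that fell in GALNT3 KO had larger, smaller or no falls on the GALNT3/T6-labelled arrays. TBX2-AS1, antisense to the T-box factor gene TBX2, had ratios of -0.82 and -0.80 in GALNT3 KO and -2.65 and -2.63 on the GALNT3/T6-labelled arrays. The clones lay close together and the groups far apart, at -1.83 from each other (adjusted p from limma 0.00104). TBX2 had -0.38 and then fell by 3.87 (adjusted p from limma 0.000113). KIF25-AS1 had -0.89 and -0.62, and then -2.30 and -2.51 (difference -1.65, adjusted p from limma 0.00331). ZNF793-AS1, LINC00337 and RASSF8-AS1 fell, with means of -0.85, -0.83 and -0.78 in GALNT3 KO and -0.48, -1.12 and -0.44 on the other arrays. ATP6V0E2-AS1 was lower in GALNT3 KO, with -0.76 and -0.88 against 0.11 and -0.22 on the GALNT3/T6-labelled arrays, and the difference was 0.77 (adjusted p from limma 0.0300).

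Of the 19 RNAs that rose in GALNT3 KO, SNHG8 had the largest rise, followed by LINC00421 and LINC00152. LINC00152, now CYTOR, had ratios of 0.76 and 0.79, and 1.94 and 1.64 on the GALNT3/T6-labelled arrays, rising by 0.78 and 1.79 (adjusted p from limma 0.0285 and 0.000443). ZNF667-AS1 had 0.75 and 0.69, then 1.80 and 1.33, while its sense gene ZNF667 rose by 0.54 in GALNT3 KO and fell by 0.81 on the other arrays. LINC00421 had 1.21 and 0.82 in GALNT3 KO and -0.73 and -0.71 on the GALNT3/T6-labelled arrays, and was called in opposite directions as SNHG8 was (difference -1.74, adjusted p from limma 0.00356). LINC00314 had 0.48 and 0.95, then -0.07 and -0.28 (difference -0.89, adjusted p from limma 0.0376). LINC00665, LINC00598, PDCD4-AS1 and LINC01539 rose by 0.68, 0.57, 0.55 and 0.53 in GALNT3 KO.

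**Figure D4:**
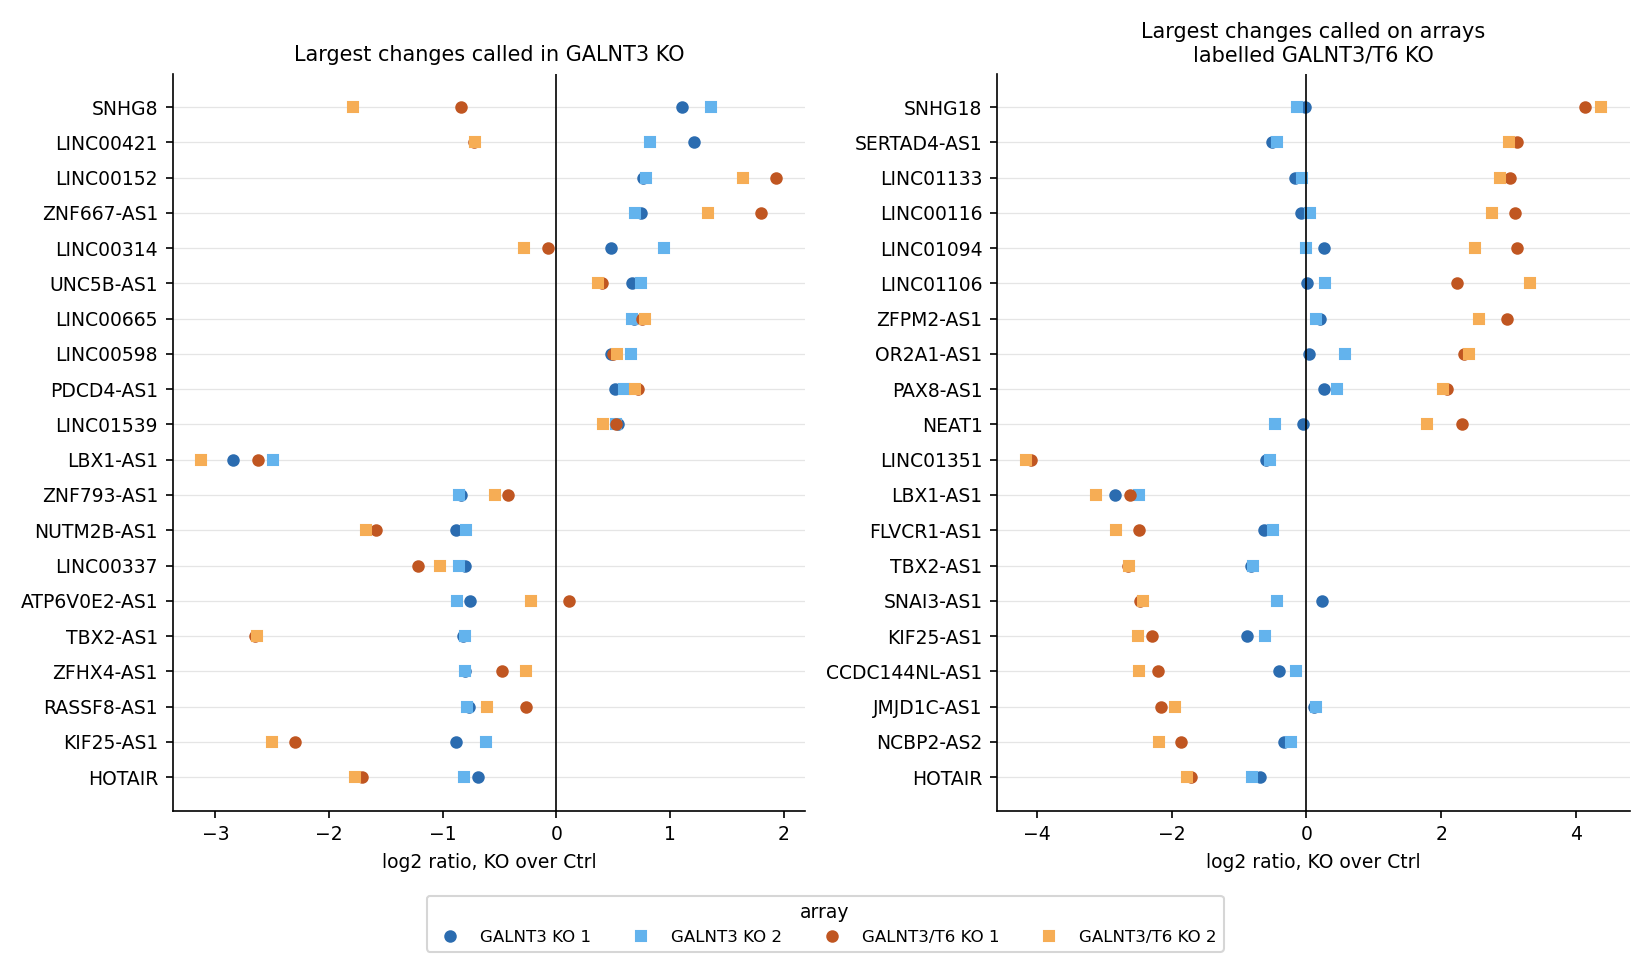
The 10 largest called rises and 10 largest called falls in GALNT3 KO, and the same on the GALNT3/T6-labelled arrays, are shown, with 1 dot for each array on a log2 ratio axis of KO over Ctrl. LBX1-AS1 lies between -3.12 and -2.49 on all 4 arrays, and the RNAs that rose most on the GALNT3/T6-labelled arrays, led by SNHG18, lie between -0.52 (SERTAD4-AS1) and 0.57 (OR2A1-AS1) in GALNT3 KO.

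Among LINC genes, LINC01133 had the largest rise on the GALNT3/T6-labelled arrays. Its ratios were -0.17 and -0.07 in GALNT3 KO and 3.02 and 2.87 on the GALNT3/T6-labelled arrays, with a rise of 2.95 (adjusted p from limma 0.000108). LINC00116, the MTLN gene, had -0.08 and 0.06, then 3.098 and 2.752. Its KO signal was at least 124-fold higher on the GALNT3/T6-labelled arrays than in GALNT3 KO, where both channels were not well above background. The Ctrl level of LINC00116 moved too, from 6.60 on the GALNT3 KO arrays to 10.62 on the others, and its other probe gave -0.15 (adjusted p from limma 0.239), so the rise rests on 1 probe. LINC01106, next to LINC00116 on the chromosome, had 0.00 and 0.27, then 2.23 and 3.32 (rise 2.78, adjusted p from limma 0.00188).

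LINC01094 lies between ANXA3, an annexin gene, and the kinase gene BMP2K, and all 3 rose on the GALNT3/T6-labelled arrays. Its own ratios were 0.26 and -0.01 in GALNT3 KO, where it was not well above background, and 3.12 and 2.50 on the GALNT3/T6-labelled arrays. Between the KO channels it was at least 7.27-fold higher on the latter. ANXA3 had 6.26 and 6.64 on those arrays, a rise of 6.45 (adjusted p from limma 9.2e-05), and BMP2K rose by 2.79 (adjusted p from limma 0.000185). The Ctrl level of ANXA3 moved too, from 7.29 on the GALNT3 KO arrays to 9.58 on the others. That of BMP2K was 8.86 and 9.39. The Ctrl signal of LINC01094 was well above background on the GALNT3/T6-labelled arrays alone.

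LINC01351, now BRINP3-DT and so named for the neural gene BRINP3 beside it, had the largest fall. Its ratios were -0.60 and -0.53 in GALNT3 KO and -4.09 and -4.17 on the GALNT3/T6-labelled arrays. Each pair was tight and the pairs were far apart. It fell by 0.57 (adjusted p from limma 0.0313) and fell by 4.13 (adjusted p from limma 9.2e-05), and the difference was -3.56 (adjusted p from limma 0.000419). BRINP3 had -0.15 and fell by 2.58 (adjusted p from limma 0.000138). RGS18, a regulator of G protein signalling on the other side, rose by 2.87 in GALNT3 KO and fell by 0.82 on the GALNT3/T6-labelled arrays (adjusted p from limma 0.00566 and 0.00721). LINC00938 had 0.36 and 0.40, then -1.40 and -1.79 (mean -1.59, adjusted p from limma 0.000873), and ARID2, a chromatin remodelling gene beside it, fell by 2.09. The means of the 3 LINC00938 probes ranged from -0.61 to 0.38 in GALNT3 KO and from -1.59 to -0.96 on the GALNT3/T6-labelled arrays.

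The nearest measured protein-coding genes of the called LINC genes were counted on the GALNT3/T6-labelled arrays. Of the 109 neighbours found for 55 of the 58 LINC genes that rose, 32.1% rose as well and 19.3% fell. Of the 73 neighbours of the 37 LINC genes that fell, 52.1% fell as well and 23.3% rose. Over all genes on these arrays the shares were 24.8% higher and 23.1% lower. In GALNT3 KO, of 18 neighbours of LINC genes that rose, 11.1% rose as well and 22.2% fell. Of 14 neighbours of LINC genes that fell there, 7.14% fell as well and 7.14% rose. The shares of all genes in GALNT3 KO were 4.69% higher and 6.34% lower. Neighbours share arrays and chromosomal regions with the LINC genes, and these shares were not tested.

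The antisense genes were set beside their sense genes, which gave 274 measured pairs. In GALNT3 KO, 26 antisense and 39 sense genes were called, and in 4 pairs both were called, all in the same direction. The GALNT3/T6-labelled arrays had 131 antisense and 172 sense genes called. Both were called in 88 pairs, of which 22 rose together, 39 fell together and 27 moved in opposite directions. Over all genes, 11% were called in GALNT3 KO, 47.8% on the GALNT3/T6-labelled arrays and 23.7% between the KO groups. Whether the genes of a pair were called together more often than unpaired genes was not tested. The ratios of the 274 pairs had r 0.285, as a description across genes measured on the same arrays. In the difference between the KO groups, 22 pairs had both genes called, 19 in the same direction and 3 in opposite directions.

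**Figure D5:**
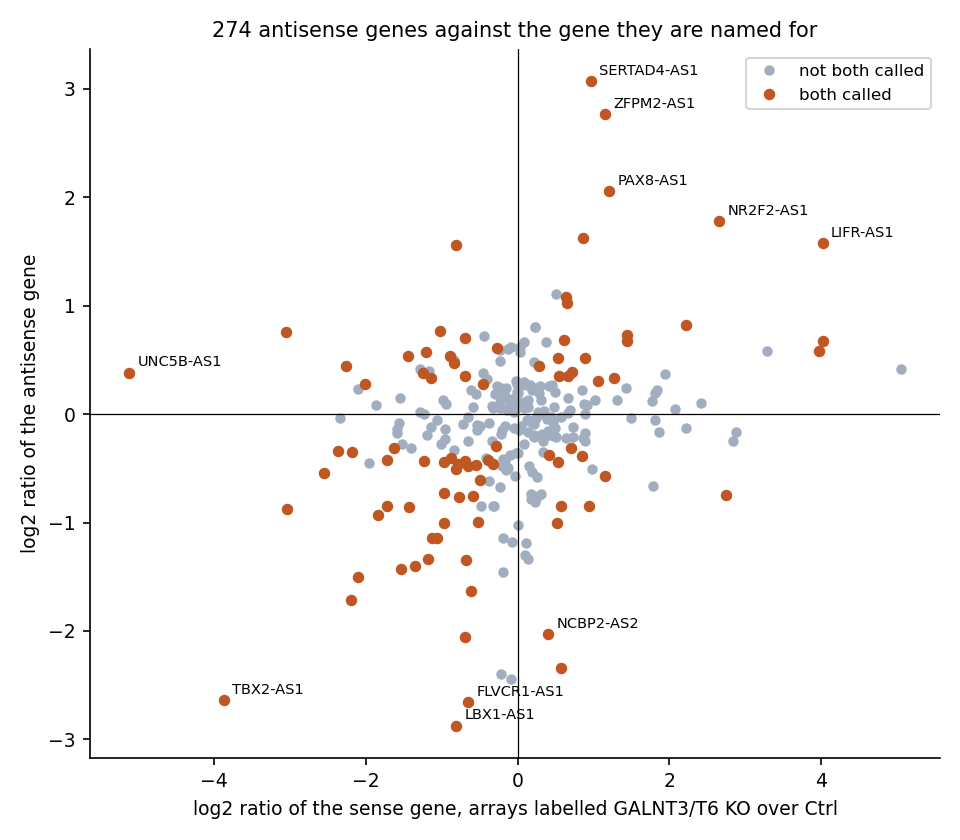
Each point is 1 of the 274 pairs, with the mean log2 ratio of KO over Ctrl on the GALNT3/T6-labelled arrays for the sense gene (x axis) and for the antisense gene (y axis), and pairs with both called are orange. PAX8-AS1 and NR2F2-AS1 lie with their sense genes in the upper right, TBX2-AS1 in the lower left, and UNC5B-AS1 stands alone, slightly above 0 while UNC5B lies at -5.12.

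Of the 22 pairs that rose together on the GALNT3/T6-labelled arrays, 4 are described first. PAX8-AS1 had ratios of 0.26 and 0.45 in GALNT3 KO and 2.09 and 2.03 on the GALNT3/T6-labelled arrays, where it rose by 2.06 (adjusted p from limma 0.000225), and PAX8, a factor of Müllerian epithelium, rose by 1.21. NR2F2-AS1 had -0.25 and -0.18, then 1.67 and 1.90, and was at least 3.44-fold higher than Ctrl there. NR2F2, an orphan nuclear receptor, rose by 2.65 (adjusted p from limma 0.00552). ZFPM2-AS1 had 0.20 and 0.14, then 2.98 and 2.56, at least 6.78-fold above Ctrl, and ZFPM2, a GATA cofactor, rose by 1.15. LIFR-AS1 had 0.07 and 0.20, then 1.61 and 1.55, while LIFR, the leukaemia inhibitory factor receptor, rose by 4.02 (adjusted p from limma 9.2e-05).

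SERTAD4-AS1 and SERTAD4 were lower in GALNT3 KO and higher on the GALNT3/T6-labelled arrays. SERTAD4-AS1 had ratios of -0.52 and -0.43 in the former and 3.13 and 3.00 in the latter, and it fell by 0.47 and rose by 3.07 (adjusted p from limma 0.0422 and 0.000101). Between the groups it differed by 3.54 (adjusted p from limma 0.000419). SERTAD4 was at least 1.85-fold lower than Ctrl in GALNT3 KO and rose by 0.96 on the other arrays, and its KO signal differed by at least 4.002-fold between the groups.

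For 4 more antisense genes that fell on the GALNT3/T6-labelled arrays, the sense gene had a smaller change or one in the other direction. FLVCR1-AS1, now FLVCR1-DT, had -0.63 and -0.49, then -2.49 and -2.83 (mean -2.66, adjusted p from limma 0.000225), and the transporter gene FLVCR1 fell by 0.65. NCBP2-AS2, annotated as protein coding, had -0.34 and -0.23, then -1.86 and -2.19, while the cap-binding gene NCBP2 was called at 0.41, a sign that turned to -0.06 with the Feature Extraction log ratio. JMJD1C-AS1 had 0.12 and 0.14, then -2.16 and -1.96 (mean -2.06), with -1.05 at its other probe, and JMJD1C, of the demethylase family, fell by 0.69. SNAI3-AS1 had 0.23 and -0.44, then -2.47 and -2.42, and SNAI3 at -0.08 was not called (adjusted p from limma 0.446).

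UNC5B-AS1 stood apart from its sense gene. Its ratios were 0.66 and 0.75 in GALNT3 KO and 0.40 and 0.37 on the GALNT3/T6-labelled arrays. It rose by 0.71 in the first (adjusted p from limma 0.0234), and its call at 0.38 in the second (adjusted p from limma 0.0179) held in 5 of 14 settings (range 0.0139 to 0.35). UNC5B, a netrin receptor, fell by 5.12 on the GALNT3/T6-labelled arrays (adjusted p from limma 9.9e-05).

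OR2A1-AS1, CCDC144NL-AS1 and NUTM2B-AS1 lie in duplicated stretches of the genome, so their probes may read more than 1 copy. OR2A1-AS1 had 0.04 and 0.57, then 2.34 and 2.41 (rise 2.37, adjusted p from limma 0.000501). CCDC144NL-AS1 had -0.41 and -0.15, then -2.21 and -2.48, but -0.32 at its other probe. NUTM2B-AS1 had -0.89 and -0.79, then -1.59 and -1.67, and another of its probes gave 0.02 in GALNT3 KO and 0.03 on the GALNT3/T6-labelled arrays. Among called genes with more than 1 measured probe, the probes differed in sign for 4 of 8 in GALNT3 KO and for 7 of 52 on the GALNT3/T6-labelled arrays, LINC00116 and NUTM2B-AS1 among the latter.

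In 15 genes the KO signal was well above background on both GALNT3/T6-labelled arrays and on neither GALNT3 KO array, and in 1 gene, MMP25-AS1, the reverse held. MMP25-AS1 was at least 1.72-fold lower on the former, but its Ctrl signal was likewise well above background on the GALNT3 KO arrays alone, and its log2 ratio on the GALNT3/T6-labelled arrays was 0.06 (adjusted p from limma 0.5746). LINC01137 was at least 3.14-fold higher between the KO channels, LINC00524 at least 2.69-fold and HOXA-AS2, from the HOXA cluster, at least 1.69-fold. The Ctrl signal of LINC01137 was also well above background on the GALNT3/T6-labelled arrays alone. LINC00693, among the 15, was called lower than Ctrl there (-0.31, adjusted p from limma 0.0488). Of all noncontrol spots, KO signal was well above background for 86.9% and 91.9% on the GALNT3 KO arrays and 93.8% and 91.7% on the others. The same count over all genes is not given here. The Ctrl channel, which held the same kind of RNA on every array, was also brighter on the GALNT3/T6-labelled arrays for the 9 genes at least 4-fold higher on each of these 2 arrays, by a median of 0.49 on the log2 scale. The part of signal shared between channels in these rises was not tested.

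RNA decay genes were counted next. On the GALNT3/T6-labelled arrays 24.8% of all genes rose and 23.1% fell. Of 17 genes of the RNA exosome and its nuclear cofactors, which degrade unstable noncoding RNA, 3 rose (17.6%) and 14 fell (82.4%) there. Their median was -0.81. EXOSC6 fell by 2.30 and EXOSC8 by 2.09, both of the core ring, while RBM7, of the nuclear exosome targeting complex, rose by 1.26. Of 14 genes of nonsense-mediated decay, which degrades many spliced host transcripts, 0 rose and 8 fell (57.1%), with a median of -0.67. UPF2 fell by 1.62 and MAGOH of the exon junction complex by 1.81, while UPF1 at -0.63 was not called (adjusted p from limma 0.1016). In GALNT3 KO 0 exosome genes rose and 3 fell (17.6%), with a median of -0.11. There 0 nonsense-mediated decay genes rose and 1 fell (7.14%), with a median of -0.39. Over all genes in GALNT3 KO, 4.69% rose and 6.34% fell.

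Well-known long noncoding RNAs with other kinds of names, which are not among the 581, were counted as well. Of 17 measured, 7 rose (41.2%) and 4 fell (23.5%) on the GALNT3/T6-labelled arrays, beside 24.8% and 23.1% of all genes, with a median of 0.27. KCNQ1OT1, another imprinted RNA, had 1.28 and 0.69 there and rose by 0.98 (adjusted p from limma 0.0128). CRNDE had 4.42 and 3.65 on these arrays (rise 4.03, adjusted p from limma 0.000284). HOTAIRM1, from the HOXA cluster, rose by 4.25 (adjusted p from limma 9.7e-05), and its KO signal was at least 51.1-fold higher than in GALNT3 KO. Its Ctrl level was higher on these arrays too, 7.93 against 6.29, and the difference between the log2 ratios was 4.22. DANCR fell by 1.33. In GALNT3 KO 0 rose and 1 fell (5.88%), beside 4.69% and 6.34% of all genes. The 1 that fell was MIR210HG, host of the hypoxia microRNA miR-210, by 1.30 (adjusted p from limma 0.0192).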

How the data were processed

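RNA of A2780s clones and Ctrl cells was hybridised to 4 Agilent two-colour arrays after linear amplification. The authors deposited Feature Extraction scanner output, of which the mean and background intensity of each channel were used, and a table of log10 ratios, which equalled the scanner's LogRatio column within 0.005 and served as an alternative. Per the labels the software was Feature Extraction 8.5.1.1, and the file headers name algorithms 10.7.3.1. Intensities were background-corrected (normexp, offset 50) and loess-normalised within arrays in limma 3.58.1 (R 4.3.3), with control and flagged spots at weight 0. Spots were averaged per probe. Kept probes were well above background, in 1 or both channels, on the pair of arrays of 1 or both groups, and a gene took its brightest probe. Group means over all 4 arrays were fitted with lmFit and eBayes, and p-values adjusted (Benjamini-Hochberg) over 27225 genes. Each comparison with Ctrl uses the same kind of Ctrl RNA, so the comparisons are not independent. Channel levels used Aquantile scaling. For a channel not well above background on both arrays of a group, the fold is a bound: the bright group's mean against, per array, the higher of the lowest signal among probes well above background and the dim probe's own. Named genes came from the 10 largest called rises and falls of each comparison with non-overlapping arrays, the SNHG genes, the 6 named RNAs, members whose probes disagreed, sense partners and list examples. The choice among these, and the neighbours, was made after values were seen. The members and lists were chosen with earlier results of these data known. Recovery was tested on simulated data. Python 3.11.15 drew the figures.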

Additional observations from a re-analysis of the deposited data

Results flagged for a closer look

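For 33 of the genes named above the effect differed between the 2 KO groups by the limma test of the difference itself, given here as GALNT3/T6 KO (as labelled) minus GALNT3 KO on the log2 scale. Among host genes of small nucleolar RNAs the difference was 4.34 for SNHG18, 1.18 for SNHG11, -0.68 for SNHG10, -0.695 for SNHG17, -1.80 for GAS5, -2.35 for EPB41L4A-AS1 and -2.55 for SNHG8. It was 2.31 for NEAT1 and -0.99 for HOTAIR. Among LINC genes it was 3.06 for LINC01133, 2.94 for LINC00116, 2.69 for LINC01094, 2.64 for LINC01106 and 1.01 for LINC00152, and -0.89 for LINC00314, -1.74 for LINC00421, -1.97 for LINC00938 and -3.56 for LINC01351. Among antisense genes with higher ratios on the GALNT3/T6-labelled arrays it was 3.54 for SERTAD4-AS1, 2.60 for ZFPM2-AS1, 2.07 for OR2A1-AS1, 2.00 for NR2F2-AS1, 1.70 for PAX8-AS1, 0.84 for ZNF667-AS1 and 0.77 for ATP6V0E2-AS1. Among those with lower ratios it was -0.79 for NUTM2B-AS1, -1.65 for KIF25-AS1, -1.75 for NCBP2-AS2, -1.83 for TBX2-AS1, -2.06 for CCDC144NL-AS1, -2.10 for FLVCR1-AS1, -2.19 for JMJD1C-AS1 and -2.34 for SNAI3-AS1. SNHG8 and LINC00421 were called with opposite signs in the 2 groups, and so was SERTAD4-AS1. Without either GALNT3 KO array, the differences of SNHG18, LINC00116, LINC00421, LINC01133, LINC01351, SERTAD4-AS1, ZFPM2-AS1, OR2A1-AS1, NR2F2-AS1, PAX8-AS1, TBX2-AS1, CCDC144NL-AS1, JMJD1C-AS1 and SNAI3-AS1 were still called, and those of the other genes listed here were not.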

How the results depend on the processing

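The count of 47 genes called in GALNT3 KO depended most on the processing. It was 154 when each comparison was fitted on its own 2 arrays, 10 with the Feature Extraction log ratio and 10 with the deposited table, and 0 with a replicate block (lowest adjusted p from limma 0.0518, 125 genes at an unadjusted p under 0.05, against 174 without the block) or by the methods' t-test after adjustment (85 genes unadjusted). Leaving out 1 array gave 0 to 154. It stayed between 36 and 61 with no background correction, median centring, no filter, a stricter filter, mean or single probes, or the study's fold criterion. The count of 247 on the GALNT3/T6-labelled arrays was 147 on its own 2 arrays, 136 with the fold criterion and 0 by the methods' t-test (131 unadjusted), 147 to 231 with 1 array left out, and 180 with the replicate block. The count of 89 between the KO groups was 1 by the t-test, 61 with the replicate block, and 19 to 143 with 1 array left out: 19 without either GALNT3 KO array. Clone numbers were not taken to pair the arrays. A crossed pairing, chosen after seeing the data, gave 52, 250 and 105. The median in GALNT3 KO was 0.0761 with the Feature Extraction log ratio and with the deposited table, and -0.009 to 0.0538 with 1 array left out. On the GALNT3/T6-labelled arrays it was -0.0029 to 0.0437, and for the difference -0.0391 to 0.0175. On the GALNT3/T6-labelled arrays, NCBP2 turned to -0.0615 with the Feature Extraction log ratio and with the table, SNHG5 ranged from -0.5756 (adjusted p from limma 0.0205) without replicate 1 to 0.6717 without replicate 2, and SNHG12 from -0.8119 without replicate 1 to 0.4564 (adjusted p from limma 0.0446) without replicate 2. The calls of RASSF8-AS1, JMJD1C and NCBP2 on these arrays were lost without either GALNT3 KO array. In these fits the lone array was assumed to vary like the other group. For single genes 558 values lost their call, 68 gained one and 2870 stayed on their side of the threshold. The causes were not tested. With 2 arrays a group, small changes cannot be seen, and faint probes are limited by background.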
